A study of Mus musculus with 2 samples.

Results

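RNA of thymocytes, the T cell precursors of the thymus, was found in 142 droplet barcodes of a library of sorted medullary thymic epithelium. No mouse was assigned to 125 of these barcodes. A barcode was counted as a thymocyte when it had at least 500 detected genes, under 15% mitochondrial UMIs, at least 3 of the 7 genes Cd3e, Cd3d, Cd3g, Lck, Themis, Trbc2 and Cd8b1, and under 3 UMIs in all of Krt5, Krt8, Krt14, Krt18 and Epcam. A UMI is 1 captured RNA molecule after removal of copies. The 142 were picked out of 2527 barcodes that passed the gene and mitochondrial bounds, of 3447 in the matrix, and no hashtag was asked for. Barcodes were thus chosen by their own UMI counts of these 12 genes, so values of those genes are given below as a description with no test.

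The study compared thymic mimetic cells, medullary epithelial cells that express the programs of other tissues, in NOD, BALB/c and C57BL/6 (B6) mice. Thymi of 6-week-old females, 2 of each strain, were digested with enzymes, depleted of CD45+ cells with magnets, and sorted for cells that lacked Pdpn and CD104 and had the low class II profile of mTEClo. Cells of each mouse carried 1 hashtag antibody, and all 6 mice shared 1 pooled droplet library. NOD mice carried HT6 and HT8, BALB/c mice HT3 and HT5, and B6 mice HT1 and HT2. The hashtag title prints replicate 1 for both NOD hashtags, and they are treated here as NOD 1 and NOD 2. No mouse had a library of its own, so a hashtag is the only label that ties a barcode to a mouse.

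As background, thymocytes enter the thymus without CD4 or CD8, rearrange the T cell receptor beta gene, divide, and then express both coreceptors while they rearrange the alpha gene. Cells whose receptor is selected keep CD4 or CD8, move to the medulla, and leave the thymus. A separate branch assembles a gamma delta receptor. CD45, the product of Ptprc, is carried by all of these cells, and it is the protein that the magnetic depletion removed.

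A hashtag is read through a barcode of 15 bases bound to the antibody. The 6 barcodes are shown because every statement about a mouse rests on them, and all letters are in capitals because the whole run is the tag.
HT6: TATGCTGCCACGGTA
HT8: TATAGAACGCCAGGC
HT3: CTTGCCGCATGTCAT
HT5: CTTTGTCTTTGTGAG
HT1: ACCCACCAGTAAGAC
HT2: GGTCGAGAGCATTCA
The 15 pairs of these barcodes differed at 8 to 14 of the 15 positions.

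Thymocyte barcodes carried few molecules of the 6 hashtags, the only tags read here. Their median was 57 hashtag UMIs, against 2912 in the 1970 epithelial barcodes, which held at least 10 UMIs of the 5 epithelial genes and under 3 of the T cell genes. The hashtag with the most UMIs held a median of 39.4% of the hashtag UMIs of a thymocyte barcode and 95.5% of those of an epithelial barcode. A barcode was assigned to a mouse when its leading hashtag had at least 70% and at least 10 UMIs. Only 17 thymocyte barcodes met this, and 125 (88.0%) did not, against 19.3% of epithelial barcodes without an assigned mouse. The unassigned share was 92.9% in 28 myeloid or dendritic barcodes and 87.5% in 24 B lineage barcodes, both told apart by marker genes.

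HT5 led in 81 thymocyte barcodes (57.0%) and HT3 in 38 (26.8%), so that a BALB/c hashtag led in most of them. HT1 and HT2 led in 8 each, HT6 in 5 and HT8 in 2. The median leading share among the 125 unassigned barcodes was 37.3%, and their summed hashtag UMIs were spread over all tags. NOD tags HT6 and HT8 held 9.94% and 3.60% of these UMIs, BALB/c tags HT3 and HT5 27% and 35.5%, and B6 tags HT1 and HT2 12.1% and 11.8%. Over all epithelial barcodes the shares were 6.36% and 3.55% for the NOD tags, 22.9% and 38.4% for the BALB/c tags, and 12.9% and 16% for the B6 tags. The order of the mice was thus nearly that of the epithelial pool, and the leading hashtag of an unassigned thymocyte barcode is not read here as its mouse. The 17 assigned barcodes held a median of 498 hashtag UMIs, against 53 in the unassigned ones, with leading tags of 82 to 3971 UMIs.

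**Figure D1:**
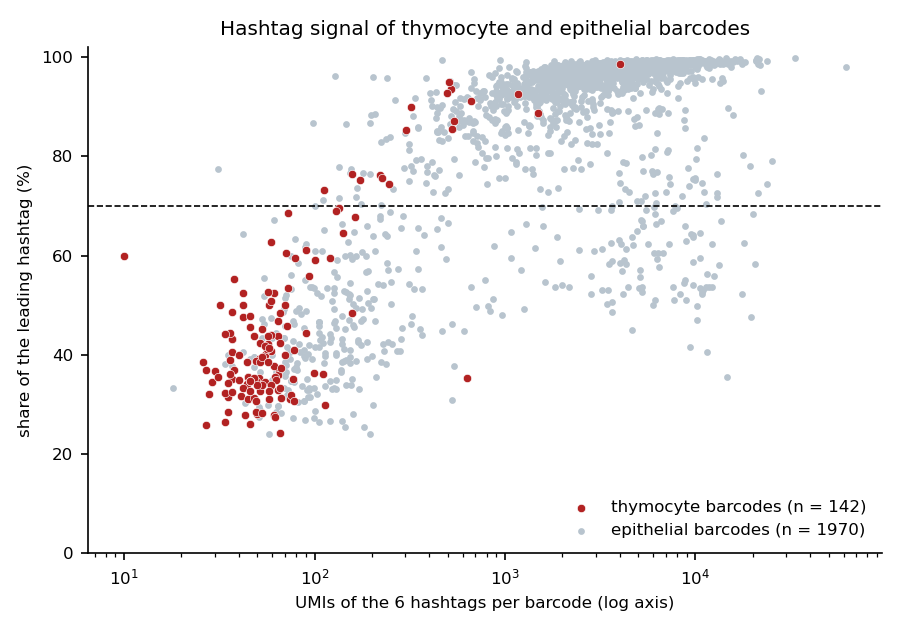
Each point is 1 barcode, with its UMIs of the 6 hashtags on a log axis and the share of the leading hashtag in percent, and the dashed line is the 70% needed for an assigned mouse. Thymocyte barcodes sit at a median of 57 hashtag UMIs and a leading share of 39.4%, against 2912 UMIs and 95.5% in epithelial barcodes.

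The depth of the thymocyte barcodes was a median of 5045 UMIs (831 to 56538) and 2255 genes, against 18422.5 UMIs and 4953 genes in epithelial barcodes. Together they held 1367889 UMIs. The median mitochondrial share was 1.53%, against 2.01%. CPM below are UMIs scaled to 1000000 summed UMIs of a group. Intervals on sums are exact Poisson and on shares exact Clopper-Pearson, both at 95%, and both cover counting error only. All barcodes come from 1 library, so comparisons between barcode groups carry no test.

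The rule's genes were strongly present. All of Cd3e, Cd3d and Cd3g, the invariant chains of the receptor complex, were detected in 133 of the 142 barcodes, and 87 barcodes held all 7 rule genes. Cd3d (chr9:44981786-44987339, plus strand, mm10) reached 1310 CPM in 140 barcodes, against 0.831 CPM in epithelial barcodes. Cd3g (chr9:44969572-44980431, minus strand) had 1216 CPM against 0.508, and Cd3e (chr9:44998740-45009627, minus strand) 650 CPM against 0.554. Lck, the kinase bound to the coreceptors, had 503 CPM against 4.78, and Themis, needed for positive selection in mice, 1104 against 13.3. These genes took part in choosing the barcodes, so their presence says nothing on the label. Of receptor complex and T cell genes that the rule did not use, Cd247 was in 127 barcodes, Skap1 in 140 and Trac in 95.

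Both bounds of the rule fell in sparse ranges. Among passing barcodes with under 3 epithelial UMIs, 80 held none of the 7 T cell genes, 16 held 1 and 4 held 2, while 2 held 3, 1 held 4, 12 held 5, 40 held 6 and 87 held all 7. Among barcodes with at least 3 T cell genes, 93 had 0 epithelial UMIs, 36 had 1 and 13 had 2. Just outside, 4 had 3 epithelial UMIs and 1 had 4. These and all others with at least 3 T cell genes and 3 or more epithelial UMIs, 33 barcodes in all, were kept apart as mixed. No doublet caller was run.

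Most marker lists of other cells were lower in thymocyte than in epithelial barcodes, and none was empty. Of the B or plasma cell genes, Cd79a and Pax5 were at 0; a count of 0 allows up to 3 UMIs over the group, or 2.19 CPM. Igkc was found in 90 barcodes at 150 CPM, against 15280 CPM in epithelial barcodes, where it was in 89.1%. Ighm, the heavy chain of IgM, was higher in thymocyte barcodes, with 137 CPM in 52 of them, against 22.3 CPM. The stroma and endothelium list was also higher, with 96.5 CPM against 9.98 CPM, and all of its 132 UMIs were Pecam1, an adhesion molecule also found on leukocytes. Of 10 myeloid or dendritic genes, Itgax, Xcr1 and Cd209a were at 0, and Cst3 had 159 CPM in 89 barcodes, against 2601 CPM. The 6 class II genes together had 259 CPM, against 13621 CPM, and 6 barcodes with at least 4 of these genes held 221 of their 354 UMIs. Of 9 medullary epithelial genes, Aire and Cldn3 were at 0 and the 9 together had 66 UMIs. The part of free RNA and of doublets in these values was not tested.

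**Figure D2:**
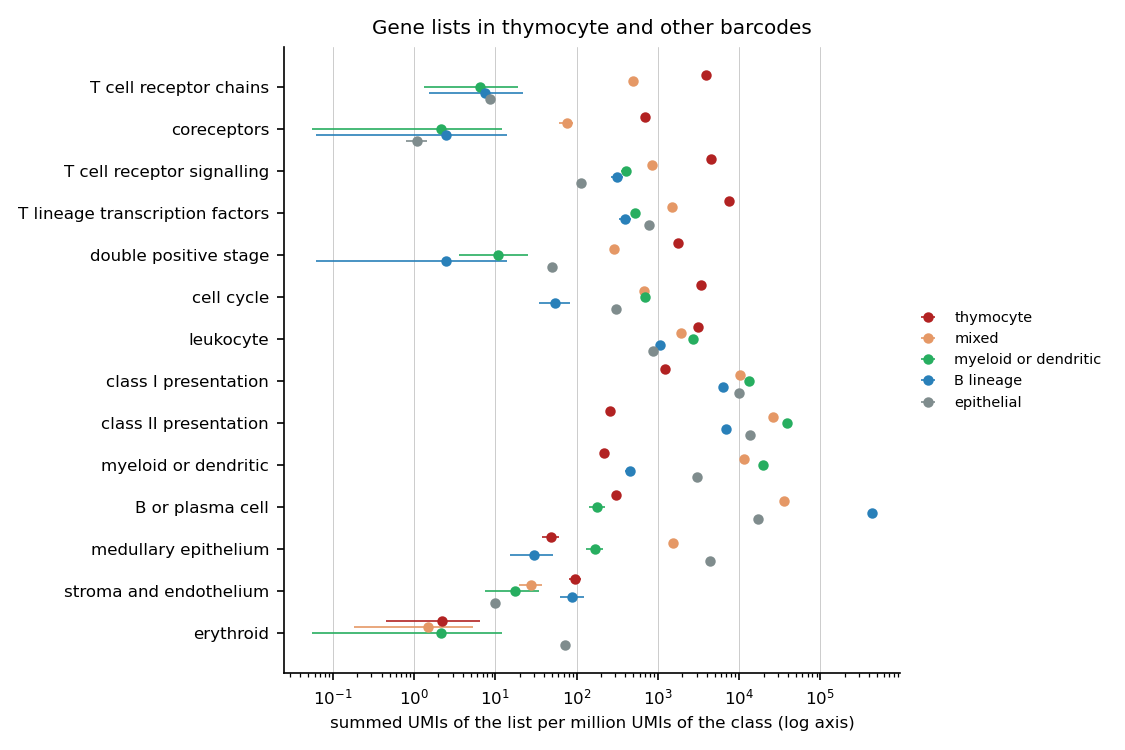
Summed level of gene lists, in UMIs per 1000000 on a log axis, in thymocyte, mixed, myeloid or dendritic, B lineage and epithelial barcodes, with exact Poisson intervals; a list with 0 UMIs in a class has no point. T cell receptor, signalling and T lineage factor lists lie higher in thymocyte barcodes, and class I, class II and medullary epithelial lists lie lower, than in epithelial barcodes.

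The T cell receptor was read through its constant genes. Trbc2 (chr6:41546730-41548352, plus strand), a beta constant gene, had 3526 CPM in 140 barcodes, and Trbc1 (chr6:41538218-41539881, plus strand), the other beta constant gene, had 2836 CPM in 120. Trbc1 and Trbc2 are near copies, and reads can be split between them. In 134 barcodes with at least 10 UMIs of the pair, the median Trbc1 share was 38.0%, with 34 barcodes under 10%, 98 between 10% and 90% and 2 over 90%. Trac (chr14:54220521-54224206, plus strand), the alpha constant gene, had 228 CPM in 95 barcodes, and Trdc (chr14:54142851-54148868, plus strand), the delta constant gene within the same locus, 322 CPM in 47. Cd247, the zeta chain that carries the signal into the cell, had 499 CPM in 127. Each of these was at 5.70 CPM or less in epithelial barcodes.

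Variable segments were seen through a few molecules per barcode. Beta V segments gave 464 UMIs in 98 barcodes, with 21 of 35 annotated segments seen, against 9 UMIs in all epithelial barcodes. In 46 barcodes with at least 3 beta V UMIs, 37 had at least 80% of them in 1 segment. Trbv2 led with 152 UMIs in 14 barcodes, at most 44 in a barcode, and Trbv31 followed with 42 UMIs in 10. Alpha V segments gave 69 UMIs in 42 barcodes. A 3' library reads these segments poorly, and related segments can share reads, so the counts do not describe the repertoire.

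The coreceptors split the barcodes by stage. Cd8a (chr6:71373427-71379173, plus strand) had 546 CPM in 98 barcodes, against 0.369 CPM in epithelial barcodes, and Cd4 (chr6:124864692-124888221, minus strand) had 140 CPM in 72, against 0.716. Cd4 and Cd8a were found together in 58 barcodes (40.8%, 32.7 to 49.4), Cd8a alone in 40, Cd4 alone in 14 and neither in 30. The double share was 0.102% in epithelial barcodes, whose median depth was the higher of the pair. After thinning each barcode to 2000 UMIs, which left out 6 thymocyte and 7 epithelial barcodes, the double share was 26.5%. A barcode without a coreceptor UMI may hold the RNA uncaptured, so these are shares of barcodes with a UMI.

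Signalling genes downstream of the receptor were present as a group. All 15 of the list were at least 2-fold above epithelial barcodes, while 28% of the 17087 genes with a UMI in thymocyte barcodes were. Skap1, an adaptor of integrin activation, had 1418 CPM in 140 barcodes, Rhoh 447 CPM in 112, and Lat, the membrane scaffold, 430 CPM in 126. The 10 T lineage transcription factors were likewise all at least 2-fold above. Satb1 had 1442 CPM in 140 barcodes, against 17.6 CPM in epithelial barcodes, and Tcf7, which starts the T cell program, 933 CPM in 135, against 6.86. Tox and Tcf12 also had 203 and 166 CPM in epithelial barcodes, so they separate the classes less.

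Outside the lists, the 15 genes with the highest ratio over epithelial barcodes held 4 receptor segments and 4 signalling adaptors. Sh2d1a, the adaptor SAP, had 456 CPM in 115 barcodes, against 0.277 CPM, and Trat1, a receptor-bound adaptor, 145 CPM in 79, against 0.162. Sla2 and Sh2d2a, both adaptors of receptor signalling, had 107 CPM in 77 barcodes and 57.0 CPM in 46. Trbv2, Trgv2, Trgc2 and Trgc4, receptor gene segments, were also among them. The rest were Tctex1d1, A630014C17Rik, Gm15340, B630019A10Rik, Gm4632, Gm43434 and Dgkeos.

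Genes of the double positive stage were prominent, and 8 of 9 were at least 2-fold above epithelial barcodes. Rag1 (chr2:101638282-101649501, minus strand), which cuts receptor genes for rearrangement, was in 66 barcodes (46.5%, 38.1 to 55.0) at 136 CPM, against 0.102% of epithelial barcodes. After thinning, Rag1 was in 28.7% of thymocyte barcodes and in 0 of 1963 epithelial ones. Dntt, which adds bases at the joins, had 555 CPM in 89 barcodes, Ccr9, a chemokine receptor of thymocytes, 356 CPM in 109, and Arpp21 351 CPM in 64. The 7 double negative genes together had 262 CPM, against 387 CPM in epithelial barcodes. Of the 7, 5 were in at least 10% of thymocyte barcodes, as were 7680 of the 17087 genes with a UMI, and 0 were in 50%. Kit was in 5 barcodes and Il2ra in 17. Mki67, a gene of dividing cells, was in 35 barcodes (24.6%, 17.8 to 32.6), against 12.2% of epithelial barcodes, and after thinning in 19.1%, against 3.06%. Ccr7, which guides selected cells to the medulla, was in 16 (11.3%, 6.58 to 17.7), against 4.16%, and after thinning in 7.35%, against 0.917%. The 6 regulatory T cell genes together had 349 CPM, against 42.4 CPM in epithelial barcodes, and most of their 477 UMIs were Ikzf2. Of the 6, 5 were at least 2-fold above epithelial barcodes, as were 28% of genes with a UMI in thymocyte barcodes. Foxp3, the regulatory T cell factor, had 1 UMI.

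A cytotoxic gene held nearly all UMIs of its list of 12 innate-like, NK and gamma delta genes, 1001 of 1026. Gzma (chr13:113093825-113100981, minus strand), granzyme A, had 1001 UMIs in 79 barcodes at 732 CPM, against 2.84 CPM in epithelial barcodes. Gzmb, Xcl1, Eomes, Ncr1 and Klrd1, all genes of NK or effector cells, were at 0. Zbtb16, the factor of innate-like T cells, was in 2 barcodes and Nkg7 in 2. Gzma and Trdc were found together in 40 barcodes, and in 12 of 136 after thinning, when Gzma was in 61 and Trdc in 25.

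The 5 class I presentation genes together had 1211 CPM, against 10047 CPM in epithelial barcodes. B2m, the light chain of class I molecules, had 392 CPM in 93 thymocyte barcodes, against 3271 CPM in epithelial barcodes, of which 99.8% had it. H2-D1 had 270 CPM, against 3872, and H2-K1 108, against 2417. Psmb8, an immunoproteasome subunit, was not lower, with 416 CPM against 385. Ptprc had 761 CPM in 135 barcodes, against 52.7 CPM in 17.4% of epithelial barcodes, so the RNA of CD45 was present in nearly all thymocyte barcodes of this CD45-depleted pool. Surface protein was not measured.

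The barcodes were sorted into 3 sets by genes chosen after their values had been seen. At least 5 of 10 cell cycle genes made 35 cycling barcodes, at least 2 of Itm2a, Ccr7, Cd69, Klf2 and S1pr1 made 36 late barcodes, and 71 remained. The genes that chose a set are not results for it. Median depth was 19484 UMIs in cycling, 3399 in remaining and 6357.5 in late barcodes, so CPM and thinned shares are given, and counts of barcodes with a UMI stand for no comparison between sets.

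Cycling barcodes held delta rather than alpha constant RNA. Trdc had 477 CPM (431 to 527) in cycling, 81.1 CPM (51.4 to 122) in remaining and 116 CPM (79.6 to 164) in late barcodes. Trac had 30.9 CPM (19.99 to 45.6), 479 CPM (402 to 567) and 549 CPM (465 to 644) in the same sets. After thinning, Trac was in 1 of 35 cycling, 42 of 65 remaining and 24 of 36 late barcodes, and Trdc in 17, 6 and 2. Dntt was at 676 CPM in cycling barcodes, and Hmgb2, a chromatin protein of dividing cells, at 5617 CPM. Ptcra, the stand-in for the alpha chain, had intervals that overlapped between the sets, with 82.8 CPM (64.2 to 105), 88.1 CPM (57.0 to 130.1) and 40.02 CPM (19.98 to 71.6). Without the barcode richest in each gene, the late levels were 37.9 CPM for Trdc and 7.98 CPM for Ptcra.

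Remaining barcodes held the most Rag1 and coreceptor RNA. Rag1 had 395 CPM (325 to 475) there, against 72.9 CPM in cycling and 54.6 CPM in late barcodes (33.4 CPM without 1 barcode). Cd8a had 892 CPM, against 555 and 164, and Cd4 374 CPM, against 58.1 and 142. After thinning, Cd8a was in 47 of 65 remaining, 19 of 35 cycling and 8 of 36 late barcodes, and Cd4 in 32, 5 and 11. Ccr9 was at 966 CPM and Themis at 2298 CPM in remaining barcodes.

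Late barcodes held genes of mature T cells that did not choose them. Cd52 had 1415 CPM (1278 to 1563), against 51.9 CPM in cycling and 285 CPM in remaining barcodes, and Bcl2, a survival gene, 440.2 CPM against 109 and 278, the cycling value being 65.0 CPM without 1 barcode. Ms4a4b had 338 CPM, against 1.24 and 10.6, these resting on 1 and 3 UMIs. B2m was at 957 CPM, against 227 and 314, and H2-D1 at 829 CPM, against 110 and 187. Cd40lg, a helper ligand, had 109 CPM in late, 0 in cycling and 7.05 CPM (2 UMIs of 1 barcode) in remaining barcodes, and of 12 late barcodes with it 7 held Cd4 without Cd8a while 1 held Cd8a without Cd4. Zbtb7b, the factor of the CD4 lineage, was in 4 late barcodes, 3 of them with Cd4 and no Cd8a. Runx3, the factor of the CD8 lineage, was in 10 late barcodes, 3 with Cd4 and no Cd8a and 3 with Cd8a and no Cd4. Gzma had 236 CPM in late barcodes, against 893 and 751, and 47 of its 65 late UMIs came from 1 barcode, without which it was at 71.8 CPM.

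**Figure D3:**
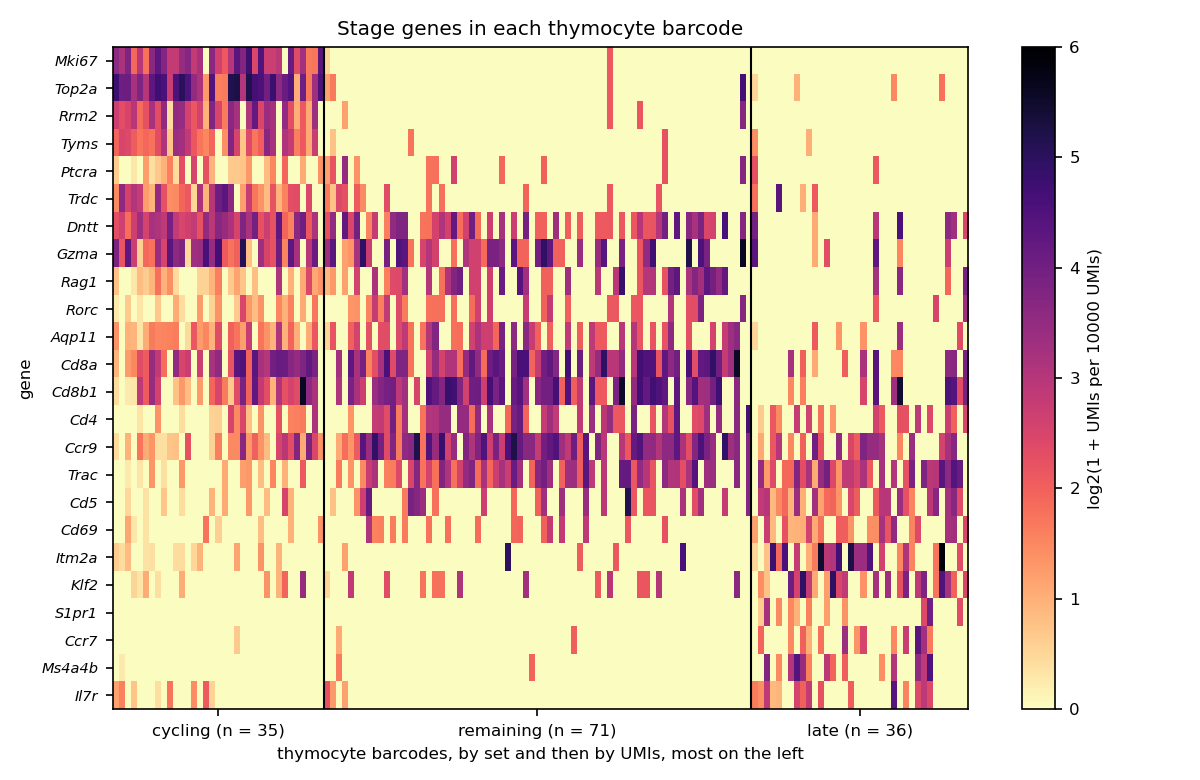
Stage genes in each of the 142 thymocyte barcodes, coloured by log2(1 + UMIs per 10000), with barcodes ordered by set and then by depth. Cell cycle genes and Itm2a, Cd69, Klf2, S1pr1 and Ccr7 chose the sets. Trdc is frequent in the cycling set, Rag1, Cd4 and Cd8a in the remaining set, and Trac in the remaining and late sets.

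**Figure D4:**
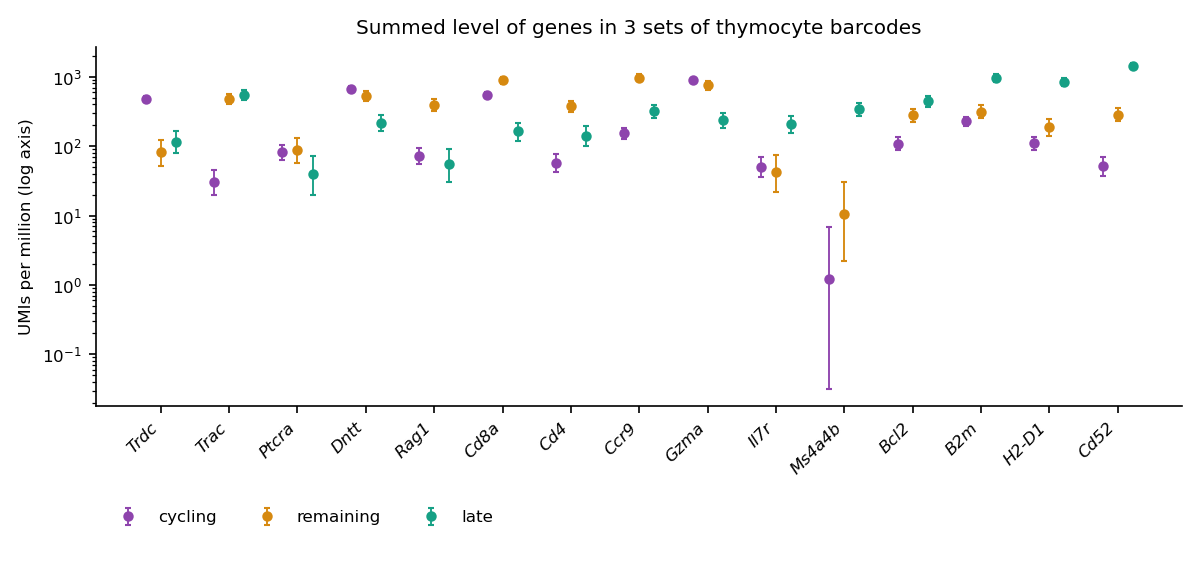
Level of named genes in CPM, on a log axis, in the cycling, remaining and late sets, with exact Poisson intervals that cover counting error only. Trac is at 30.9 CPM in cycling barcodes, against 479 CPM in remaining and 549 CPM in late barcodes.

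A few barcodes carried gamma delta receptor RNA. The gamma constant genes Trgc1 to Trgc4, read after their values were seen because the listed names were not in the matrix, gave 240 UMIs in 19 barcodes, and they are near copies that can share reads. At least 3 UMIs of both gamma and delta constant genes were found in 8 barcodes, 4 cycling, 2 remaining and 2 late, and 7 of these had no Trac UMI. The 2 late ones differed from each other. In 1 of them 24159 UMIs held 6 Trdc, 35 Dntt, 9 Ptcra and 0 Cd4 UMIs. In the other 11237 UMIs held 22 Trdc, 0 Dntt, 0 Ptcra and 2 Cd4 UMIs. Together they held 23 gamma, 0 Cd8a and 0 Rag1 UMIs.

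Strain was read a second time from genes and pseudogenes whose reads differ between the strains in hashtagged epithelial barcodes. Such pairs of near copies compare where the reads of a strain were placed, not the level of a gene, and the comparison was added after values were seen. Gm15772 (chr5:3236431-3236868, plus strand), a processed pseudogene of Rpl26, took 0.446% of the pair's UMIs in NOD epithelial barcodes, 76.8% in those of BALB/c and 1.79% in those of B6. Among 122 thymocyte barcodes with at least 3 UMIs of the pair, 12 (9.84%, 5.19 to 16.6) had at least 50% of them in Gm15772, while a BALB/c tag led in 119 of all 142. Barcodes with more Gm15772 than Rpl26 numbered 14, led by HT5 in 9 and HT3 in 5.

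The 125 unassigned barcodes fell into 12 with more Gm15772 than Rpl26 and 113 without. The 113 gave 2 Gm15772 UMIs of 1821 (0.110%), a share that their selection lowered but did not set, since it allowed up to 50%. In them Csnk2a3 took 105 of 164 UMIs of its pair with Csnk2a1 (64.0%, 56.2 to 71.4), against 69.1% in NOD, 5.04% in BALB/c and 5.99% in B6 epithelial barcodes. Rps24-ps3 (chrX:79195047-79195448, plus strand) took 4 of 5581 UMIs of its pair with Rps24 (0.0717%), against 15.3% in NOD, 0.232% in BALB/c and 0.0746% in B6 epithelial barcodes. Ndufa12-ps, read with Ndufa12, took 52 of 148 UMIs (35.1%, 27.5 to 43.4), against 48.1% in NOD, 45.7% in BALB/c and 3.58% in B6 epithelial barcodes, so the 113 were away from B6 there. H2-T22, a class I gene with close relatives that can share its reads, had 215 CPM in the 113, against 10.2 CPM in epithelial barcodes of NOD, 151 CPM in those of BALB/c and 130 CPM in those of B6. Tagged thymocyte barcodes had H2-T22 at 184 CPM (50.2 to 472, 4 UMIs) for NOD, 77.3 CPM (2 UMIs) for BALB/c and 163 CPM (17 UMIs) for B6. Its level also differed between the sets, with 255 CPM in cycling, 204 CPM in remaining and 61.8 CPM in late barcodes. The 113 were thus near NOD epithelial barcodes at Csnk2a3 and away from them at Rps24-ps3 and H2-T22. This combination was seen in none of the 3 strains' hashtagged epithelial barcodes. At H2-T22 the 113 were not away from NOD-tagged thymocyte barcodes. Csnk2a3 UMIs without Rps24-ps3 were found in 49 single barcodes of the 113, and Csnk2a3 together with H2-T22 in 28. The source of these barcodes was not tested.

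The assigned barcodes are few, and their values often rest on 1 barcode. At Rps24-ps3, 3 NOD-tagged barcodes had 16 of 103 UMIs (15.5%), 5 BALB/c-tagged ones 1 of 145 and 9 B6-tagged ones 0 of 613. At Gm15772 the counts were 0 of 26, 15 of 23 and 1 of 233 in the same order. One NOD 1 barcode gave all 16 of the Rps24-ps3 UMIs and one BALB/c 2 barcode 14 of the 15 Gm15772 UMIs, while a pair of other BALB/c 2 barcodes had 0 Gm15772 and 3 Rpl26 UMIs each. At Ndufa12-ps the counts were 1 of 1, 0 of 3 and 1 of 17. At Csnk2a3 they were 3 of 6, 3 of 5 and 0 of 14, and here the BALB/c-tagged barcodes stood away from the 5.04% of BALB/c epithelial barcodes. Myeloid or dendritic barcodes, 92.9% of them unassigned, also had 67.9% of the pair in Csnk2a3 (19 of 28 UMIs) and 0.309% in Gm15772. B lineage barcodes had 68.4% (13 of 19 UMIs) and 6.06%, and the unassigned epithelial barcodes 51.7% and 5.94%. Rps24-ps3 took 0 of 2022, 0 of 1641 and 210 of 41424 UMIs of its pair in the same order. High Csnk2a3 with little Rps24-ps3 was thus not particular to thymocyte barcodes. H2-T22 was at 45.7 CPM, 19.8 CPM and 52.3 CPM in these classes, against 215 CPM in the 113.

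**Figure D5:**
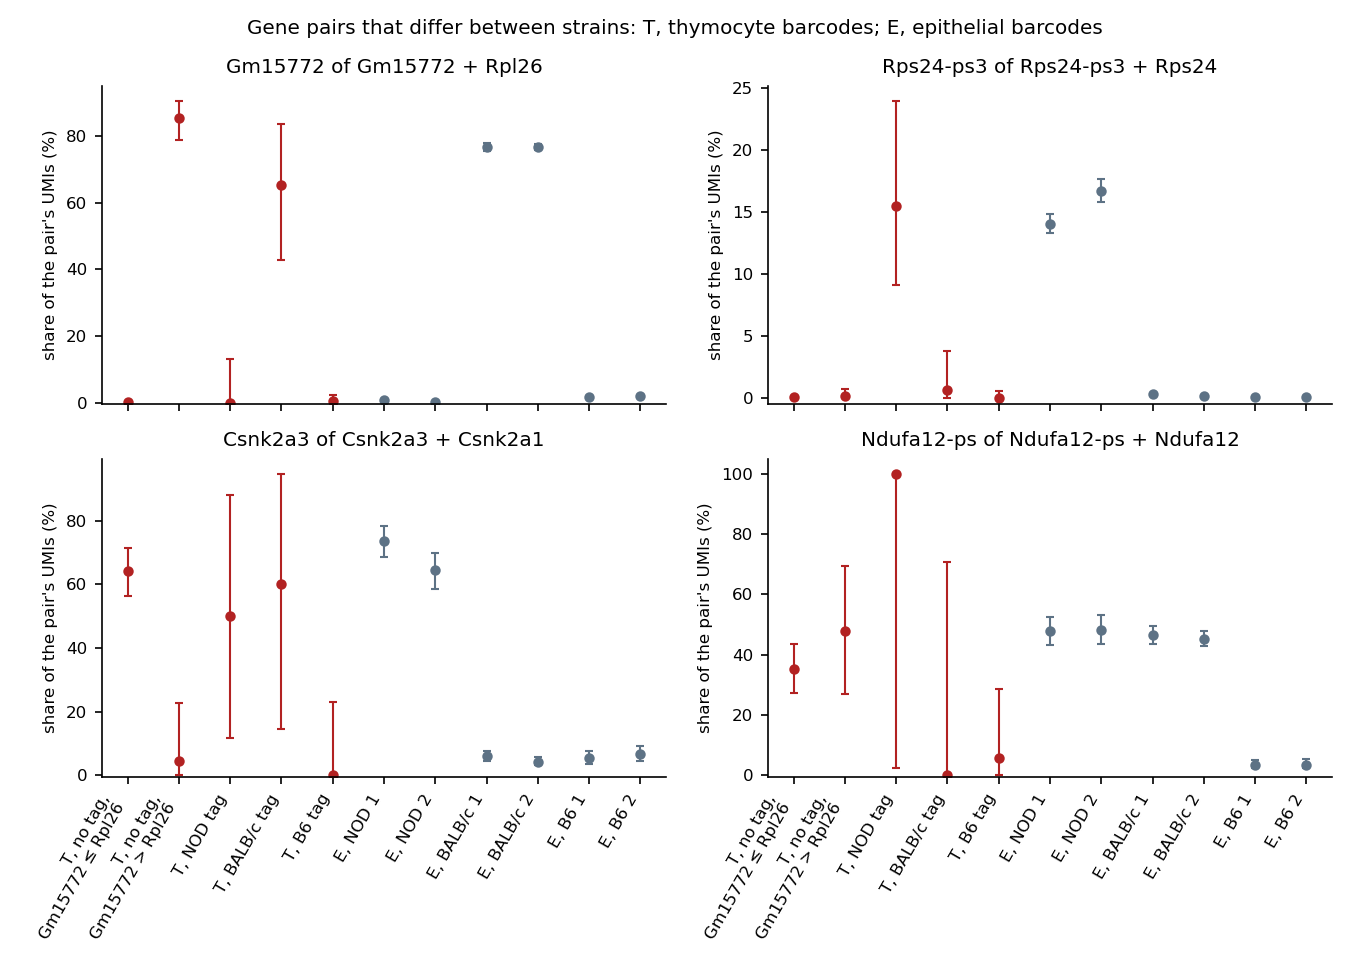
Share of a pair's UMIs in the copy, in percent, for thymocyte barcodes by hashtag (T) and for hashtagged epithelial barcodes of each mouse (E), with exact binomial intervals for counting error only. The 113 unassigned thymocyte barcodes are at 64.0% for Csnk2a3 and 0.0717% for Rps24-ps3, against 69.1% and 15.3% in NOD epithelial barcodes of both mice together.

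A stricter reading placed barcodes by genes at least 20-fold higher in 1 strain, picked in the hashtagged epithelial barcodes. Of the 17 assigned barcodes, 2 could be placed, and both were placed with the strain of their tag. Of placed epithelial barcodes, 182 of 183 (NOD tag), 729 of 735 (BALB/c tag) and 190 of 198 (B6 tag) went to their tag's strain. The genes were picked in these same barcodes by these tags, so this share is no independent check of the placement. Of the 125 unassigned thymocyte barcodes, 0 were placed with NOD, 16 with BALB/c, 1 with B6 and 108 with none. The strain genes are unequal in thymocytes: the BALB/c gene Gm15772 had 153 UMIs in all 142 barcodes, while the B6 genes Skint3, Skint9 and 1700003P14Rik had 1, 3 and 0, so few barcodes could be placed with B6.

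The share of thymocytes among assigned barcodes was compared between strains over the 6 mice. In NOD it was 2 of 129 (1.55%) for NOD 1 and 1 of 131 (0.763%) for NOD 2. In BALB/c it was 2 of 439 (0.456%) for BALB/c 1 and 3 of 622 (0.482%) for BALB/c 2. In B6 it was 5 of 237 (2.11%) for B6 1 and 4 of 259 (1.54%) for B6 2. Both BALB/c mice lay below the other 4 mice, and the NOD and B6 ranges overlapped. Means were 1.16% in NOD, 0.469% in BALB/c and 1.83% in B6. A two-sided exact permutation test over 90 arrangements gave p = 0.133, and the design cannot go below 0.067. The test leaves out the 125 thymocyte barcodes with no mouse, so it speaks for assigned barcodes only.

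UMIs of the assigned thymocyte barcodes were summed per mouse and tested between strains with edgeR's quasi-likelihood test, with Benjamini-Hochberg adjustment over 265 genes. The sums were 11416 UMIs for NOD 1, 10303 for NOD 2, 7205 for BALB/c 1, 18679 for BALB/c 2, 65890 for B6 1 and 38166 for B6 2. Of the 265 genes, 1 was called for NOD minus BALB/c (0.377%), 0 for NOD minus B6 (0%) and 0 for BALB/c minus B6 (0%), at an adjusted p under 0.05. At an unadjusted p under 0.05 the counts were 20, 15 and 23, and DESeq2 called 1, 0 and 1. The called gene, Crip1 (chr12:113146316-113153879, plus strand), had 53 UMIs in NOD 1, 18 in NOD 2, 1 in BALB/c 1, 2 in BALB/c 2, 50 in B6 1 and 38 in B6 2. Both NOD mice were thus above both BALB/c mice in UMIs, and so were both B6 mice, whose sums were deeper. Its log2 difference for NOD minus BALB/c was 4.68, with an edgeR adjusted p of 0.0143. All 53 UMIs of NOD 1 came from 1 remaining barcode and all 18 of NOD 2 from 1 cycling barcode, while no BALB/c-tagged barcode was cycling. Crip1 also differed between the sets, with 1442 CPM in cycling, 656 CPM in remaining and 808 CPM in late barcodes, and the part of set in the strain difference cannot be told apart with 1 to 5 barcodes a mouse. Across the alternatives the adjusted p ran from 0.000748 to 0.730, and the call was lost without BALB/c 2 (log2 difference 4.48, edgeR adjusted p = 0.416). At a leading share of 50% the log2 difference was 1.08 (edgeR adjusted p = 0.730). Calls in the order NOD minus BALB/c, NOD minus B6 and BALB/c minus B6 were 24, 1 and 12 without NOD 1, and 6, 5 and 7 without NOD 2. They were 2, 4 and 0 without BALB/c 1, 0, 0 and 0 without BALB/c 2, 7, 0 and 0 without B6 1, and 4, 0 and 0 without B6 2. The number of calls thus turned on single mice, of 1 to 5 barcodes each.

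No tested list gene was called in any strain comparison, and at most 8 genes of a list were tested. Many lists had 0 genes tested and so could have no call. Among them were the double negative, lineage choice, regulatory T cell and class II lists. The 8 tested T lineage factors had median log2 differences of -1.26 for NOD minus BALB/c, 0.10 for NOD minus B6 and 1.22 for BALB/c minus B6. Over all tested genes the medians were 0.10, 0.07 and -0.08 in the same order. Values of this size rest on a few UMIs per mouse.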

How the data were processed

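The values the authors deposited were whole-number UMI counts, with no normalization, of genes and hashtags for every droplet barcode, made with Cell Ranger 7.0.0 on mm10 per the submitters' processing notes; the annotation release is not given in the sources used here. The library was 10x Genomics 3' with hashtag reads, per the labels' protocols. The deposited hashtag sequences and counts of 6 tags were used. The matrix also holds 9 tag features that the hashtag title links to no mouse, and their counts were not read. Whether unassigned barcodes carried any of these was not tested. Coordinates and gene types are those of GENCODE M21 on mm10, matched by versioned identifier for 54349 of 55487 genes.

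Barcodes were classed by the given bounds. Mixed barcodes held at least 3 T cell genes and at least 3 UMIs of the 5 epithelial genes; myeloid or dendritic barcodes held at least 4 of 10 markers and B lineage barcodes at least 3 of 10, both with under 3 T cell genes and under 3 epithelial UMIs. The members and all gene lists were chosen with earlier results of these data known. Named genes were those of the rule, the receptor and the coreceptors, up to 4 of each other list with the most UMIs, the 15 genes outside the lists with the largest ratio over epithelial barcodes among genes with at least 20 UMIs, and genes called between strains; genes named beyond these were chosen after their values were seen. Of 174 list genes, 3 gamma constant names were not in the matrix.

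Sums per mouse were tested with edgeR 4.0.16 (TMM scaling, filterByExpr, robust quasi-likelihood test, all 6 mice in 1 fit, strain as the term), after a check on simulated data, with DESeq2 1.42.0 as an alternative. HTODemux of Seurat 5.3.0 was the other way to assign hashtags. Shares were compared with scipy 1.17.1. With 2 mice a strain and 1 pooled library, p-values measure the spread between hashtagged mice within 1 capture. Alternatives changed the bounds of the rule, the hashtag assignment, the tool, the scaling, the filter, the depth and the mice included. A few list genes are not reported here; counts over a whole list include them.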

Additional observations from a re-analysis of the deposited data

How the results depend on the processing

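The count of thymocyte barcodes was 93 with 0 epithelial UMIs allowed and stayed between 136 and 153 under the other bounds, of which leaving out barcodes with at least 4 of the 6 class II genes (136) was chosen after seeing the data. Thinning to 2000 UMIs moved the Rag1 share to 28.7% and the Cd4 and Cd8a share to 26.5%. Assigned barcodes placed with the strain of their tag numbered 0 with 0 epithelial UMIs, 1 at a leading share of 50%, 1 at 90%, and 5 of 7 placed with strain genes at 10-fold. The exact permutation p for the share of thymocytes ran from 0.067 to 0.733 over all alternatives, with the smallest value possible for 6 mice being 0.067.

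Genes called for NOD minus BALB/c were 0 with HTODemux, 0 at a leading share of 50%, 0 at 90% and 0 with no filter on low counts. For NOD minus B6 no filter gave 2. For BALB/c minus B6 DESeq2 gave 1, upper quartile scaling 1 and no filter 2. Leaving out each mouse in turn gave 0 to 24 calls for NOD minus BALB/c, 0 to 5 for NOD minus B6 and 0 to 12 for BALB/c minus B6; a strain left with 1 mouse is assumed to vary like the others. The causes of these changes were not tested. With the replicate number as a replicate block, 7 genes were called for NOD minus BALB/c and 4 for BALB/c minus B6. The deviations of mice with number 1 correlated at 0.02 (BALB/c and B6), 0.40 (NOD and B6) and -0.17 (NOD and BALB/c). The NOD numbers were given here and a mouse has 1 to 5 barcodes, so these values cannot decide whether mice were paired. Of 176 alternatives in all, 123 stayed the same, 16 gained calls, 10 lost them and 27 moved. Those of the permutation test could only stay the same, since its p cannot fall under 0.05 with these mice. The 10 count each setting for both the NOD minus BALB/c calls and Crip1, the only gene called there. The tally is thus no measure of stability. A result stayed the same when it kept its direction and side of the threshold or stayed within its error. A count stayed the same when it lay within a fixed fold of the reported count. The 176 alternatives include leaving out the barcode richest in each of 20 genes from the levels of the 3 sets, chosen after seeing the data. Depth limits the strain comparisons, with 7205 to 65890 UMIs a mouse.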
